A study of Homo sapiens with 20 samples.

Results

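The 10 genes EZR, MSN, ACTN1, FLNA, TPM1, TPM2, TPM4, MYL9, VCL and ZYX encode proteins of the actin cytoskeleton and of focal adhesions, and were followed through EGF-treatment of MDA-MB-468 cells. They were chosen by name, with earlier results of these data known. All 10 were present among the 60271 genes of the deposited count table, and all 10 were among the 16522 genes with enough reads to be tested. MDA-MB-468 is an epithelial line from a triple negative breast cancer, a type without estrogen receptor, progesterone receptor and HER2, and the line is known for very high EGFR. The untreated control group and the groups kept in EGF (50 ng/mL) over 12, 24, 48 or 72 h held 4 biological replicates each, that is 20 poly(A) RNA-seq libraries. By the protocol, cells were grown for 24 h and then kept without serum for 24 h ahead of EGF, and all groups shared seeding and harvest and differed in when EGF was added. Shared seeding and harvest cannot go together with the same 24 h without serum ahead of EGF at every EGF time. How long the control and each EGF group were without serum in all is not given in the sources used here. Time with EGF and time without serum thus cannot be told apart. The control is the same 4 libraries for every EGF time, and a single cell line is the only model.

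Library totals ran from 15611961 to 25856953 counts. The line's defining markers were high in every library, with EPCAM at 139 or more, KRT18 at 723 or more and EGFR at 3617 or more in counts per 1000000 (CPM) before scaling, PGR was at 0 in all libraries and ESR1 stayed between 1.71 and 6.90. Of 6 genes that mark blood, endothelial or fibroblast cells 2 had enough reads to be tested. PTPRC, CDH5 and COL1A2 reached at most 8, 3 and 1 counts in any library, whereas PECAM1 ran from 0.19 to 5.55 and COL1A1 from 5.33 to 15.2 CPM. COL1A1 was higher than in the control at all 4 EGF times and PECAM1 lower at 12 h and higher at 48 h, and their part in the results below was not tested. The 7 epithelial markers of the line moved too. All 7 were higher than in the control at 12 h (median log2 fold change 1.41), beside 32.9% of all genes tested. At 24 h 5 were higher and 1 lower, at 48 h 1 and 2, and at 72 h 4 and 2. Of all genes 29.2%, 24.0% and 30.6% were higher and 29.6%, 21.8% and 31.0% lower at these times. From 12 to 24 h all 7 fell and from 24 to 48 h 5, beside 25.9% and 24.3% of all genes. From 48 to 72 h 3 rose, beside 17.9% of all genes. The part of these marker changes in the results was not tested. The mitochondrial share of counts averaged 10.9% ± 1.84 in the control and, in order of EGF time, 9.41% ± 1.68, 12.4% ± 1.20, 12.5% ± 3.03 and 15.0% ± 1.88 (SD, n = 4 each). Its part in the results was not tested either. In such bulk samples fewer cells with a transcript and less transcript per cell cannot be told apart.

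Actin filaments are built and cut continuously in a cell, and the proteins studied here decide where filaments attach, how they are bundled and how they are pulled. Ezrin and moesin tie filaments to the plasma membrane, alpha-actinin and filamin cross-link them, tropomyosins lie along them and govern access of other proteins, and myosin light chains regulate the motor that contracts them. Vinculin and zyxin belong to focal adhesions, the plaques where filaments pull on integrins and the matrix. EGF receptor signalling is known to drive ruffling, loss of cell contacts and migration in epithelial cells, and many of these genes are textbook targets of serum response factor (SRF), whose coactivators are freed when actin monomers are used up.

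Sequence before the start sites is shown first for the 4 genes in which a searched motif of limited frequency was found, because these motifs belong to factors known to act downstream of EGF or of actin. RefSeq promoter sequences (GRCh38.p14, 250 bases before to 50 after each start) matched 9 of the 10 genes with 16 start sites, MYL9 having no entry in that table. Both strands were searched for the SRF CArG box, for the AP-1-type letters TGACTCA, for the TEAD-type letters GGAATG and for the SP1-type letters GGGCGG. In the following windows the match to the CArG box or TGACTCA is in capitals and the rest in lower case, 5′ to 3′ on the strand of the gene. Matches to GGAATG and GGGCGG are not marked. The EZR window is chr6:158818236-158818351 on the minus strand and ends directly before the start. The ACTN1 window is chr14:68977668-68977797 on the minus strand, the TPM4 window chr19:16067305-16067434 on the plus strand and the FLNA window chrX:154374659-154374788 on the minus strand.
EZR: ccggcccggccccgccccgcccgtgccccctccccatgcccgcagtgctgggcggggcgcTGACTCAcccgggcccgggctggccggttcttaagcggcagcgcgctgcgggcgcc
ACTN1: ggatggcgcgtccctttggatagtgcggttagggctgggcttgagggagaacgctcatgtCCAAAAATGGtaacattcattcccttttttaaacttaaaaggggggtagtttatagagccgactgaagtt
TPM4: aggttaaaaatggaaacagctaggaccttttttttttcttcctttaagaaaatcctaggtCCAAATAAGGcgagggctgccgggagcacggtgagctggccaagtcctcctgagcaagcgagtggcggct
FLNA: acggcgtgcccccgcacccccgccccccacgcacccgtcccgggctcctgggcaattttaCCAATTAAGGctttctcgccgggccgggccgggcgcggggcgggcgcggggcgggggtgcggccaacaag

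The CArG box began 171 bases before 1 of the 4 ACTN1 starts, 173 bases before 1 of the 3 TPM4 starts and 94 bases before the FLNA start. It was found before 3 of the 16 starts, while 1.29% of the 35116 promoters in the table held it. TGACTCA began 56 bases before the EZR start and was absent from the other windows, and 4.95% of all promoters held it. GGAATG was found before VCL and before the same ACTN1 start, against 14.0% of all promoters. GGGCGG, which matches GC-rich promoters of every kind, was found in 14 of the 16 windows and in 45.0% of all promoters. By the GENCODE 29 annotation the EZR and ACTN1 windows held no annotated exon base and lay within the genes. The TPM4 window held 2 annotated exon bases and the FLNA window 69, counted over exons of any gene on either strand. A match is a string of letters here, and no binding was measured.

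At 12 h all 10 genes were higher than in the control (edgeR quasi-likelihood test, adjusted p below 0.05 over all genes tested), where 32.9% of all genes tested were called higher, 36.5% lower and 69.4% in all. The log2 fold changes of the 10 genes ranged from 0.68 to 2.08 with a median of 1.49, against a median of -0.05 over all genes tested. Every EGF library was above every control library for all 10 genes, which held in that direction for 29.4% of all genes. As the 10 genes were chosen with earlier results known, the contrast with all genes is a description and not a test. At 24 h 8 genes were still higher and none lower, at 48 h 5 were higher and 2 lower, and at 72 h 8 were higher and 1 lower. The genes called at 24, 48 and 72 h were 58.8%, 45.8% and 61.6% of all genes tested, with 29.2%, 24.0% and 30.6% called higher and 29.6%, 21.8% and 31.0% called lower. The medians of the 10 genes at these times were 0.82, 0.27 and 0.60, beside -0.01, 0.01 and -0.01 over all genes tested. Together the 10 genes took 0.191% ± 0.0146 of all counts in the control, 0.428% ± 0.00693 after 12 h of EGF, and 0.284% ± 0.0135, 0.208% ± 0.00811 and 0.259% ± 0.00973 in the 3 later groups (SD, n = 4 each).

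**Figure D1:**
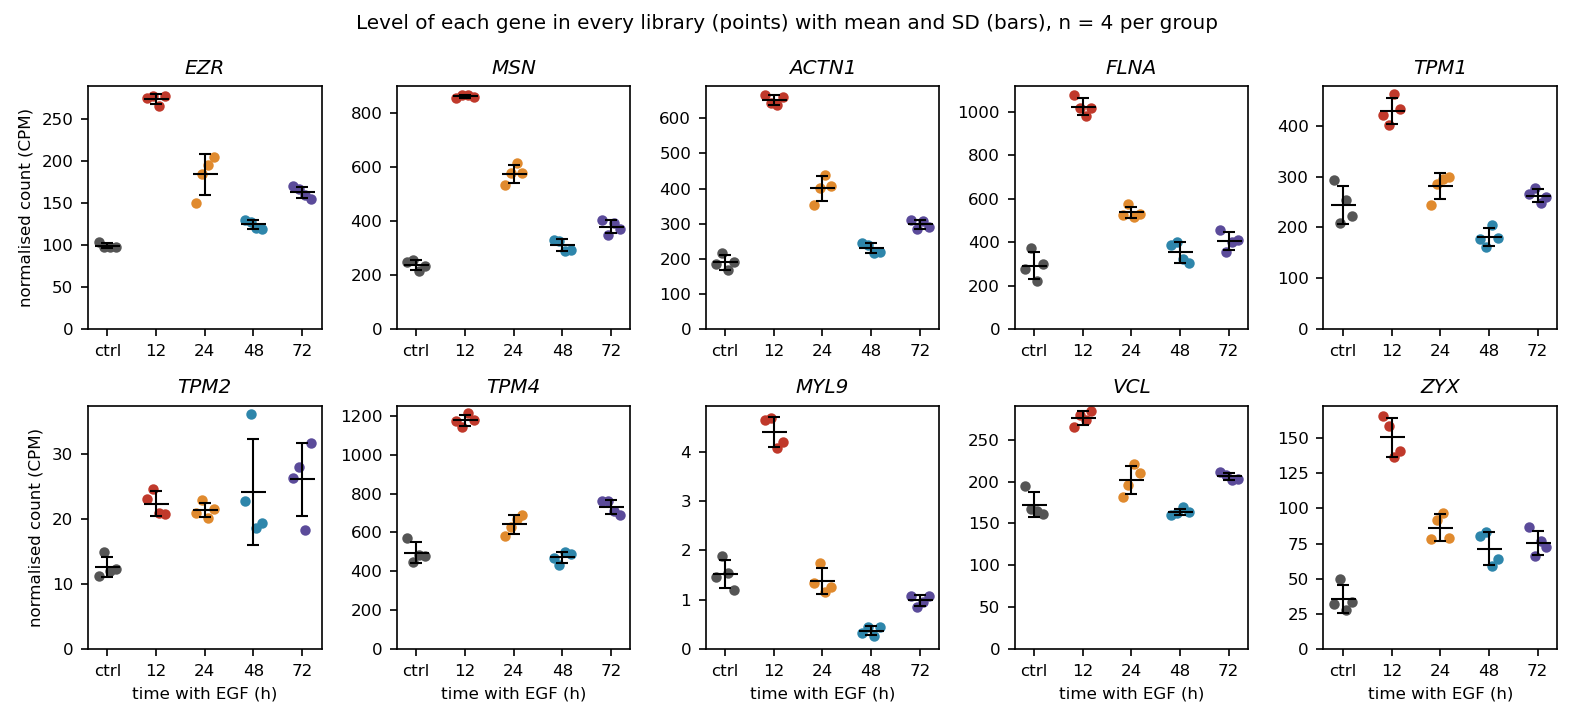
Normalised count (CPM, linear axis from 0) of each of the 10 genes in every library, by group, with time points evenly spaced and not to scale. Points are libraries, and bars are the mean and SD of 4. The highest mean stands at 12 h in 9 panels, while TPM2 stays above the control from 12 to 72 h with 1 high library at 48 h (36.2 CPM).

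The shape of the time course was shared by most of the genes, and 9 of the 10 had their highest mean at 12 h, as did 29.1% of all genes tested. From 12 to 24 h 9 genes fell, beside 25.9% of all genes called lower and 53.7% called in all. From 24 to 48 h 8 fell, beside 24.3% lower and 50.2% in all. From 48 to 72 h none fell and 7 rose, beside 17.9% of all genes called higher and 35.7% called in all. These 7 genes, EZR, MSN, ACTN1, TPM1, TPM4, MYL9 and VCL, thus went through a low point at 48 h. Compared directly with 12 h, 9 genes were lower at 48 h and 9 at 72 h, beside 32.5% and 32.0% of all genes lower and 70.3% and 67.6% called. From 24 to 72 h MSN, ACTN1 and FLNA were lower and TPM4 was higher, beside 19.7% of all genes lower, 20.6% higher and 40.2% called. The gene set apart by all these comparisons was TPM2, which passed the test against the control at every time and, with all libraries, in none of the comparisons between EGF times. 5 genes, EZR, MSN, ACTN1, TPM2 and ZYX, were higher than in the control at all 4 EGF times, which held for 11.2% of all genes tested.

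Ezrin and moesin are 2 of the 3 ERM proteins, which open on phosphorylation and then hold the cell membrane to the cortical actin. EZR (chromosome 6, 158765741 to 158819412, minus strand, 16 merged exons) was at 104, 97.3, 98.1 and 98.0 CPM in the control and at 275, 278, 265 and 278 CPM at 12 h. The groups lay far apart, and the change was 1.46 ± 0.07 (log2, SE, 2.76-fold, edgeR adjusted p = 1.86e-14). At 24 h EZR was at 150.3, 185, 196 and 205 CPM, at 48 h at 130.3, 128, 121 and 119 CPM and at 72 h at 169.7, 167, 160.1 and 155 CPM. No EGF library fell into the range of the control, and the log2 fold changes were 0.89 ± 0.07, 0.33 ± 0.07 and 0.71 ± 0.07 (SE, edgeR adjusted p = 2.21e-10, 0.000684 and 8.31e-09). The 24 h libraries spread most, with replicate 1 the lowest, and without it EZR was lower at 72 h than at 24 h (log2 fold change -0.26) where the full set gave -0.17 (edgeR adjusted p = 0.0556).

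MSN (chromosome X, 65588377 to 65741931, plus strand, 19 merged exons) was at 251, 257, 214 and 233 CPM in the control and at 857, 868, 867 and 858 CPM at 12 h. This was a 3.61-fold rise, 1.85 ± 0.07 on the log2 scale (SE, edgeR adjusted p = 6.41e-17), with the 12 h libraries close together. MSN was at 533, 578, 615 and 579 CPM at 24 h, at 332, 327, 291 and 293 CPM at 48 h and at 403, 351, 395 and 372 CPM at 72 h, so that every EGF library stayed above the highest control. The log2 fold changes were 1.27 ± 0.07, 0.38 ± 0.07 and 0.67 ± 0.07 (SE, edgeR adjusted p = 7.28e-14, 4.99e-05 and 5.45e-09). Within a library the ratio of EZR to MSN counts was 0.414, 0.378, 0.457 and 0.421 in the control and 0.321, 0.320, 0.306 and 0.324 at 12 h. MSN had thus gained on EZR, the log2 ratio differing from the control by -0.39 at 12 h and -0.39 at 24 h (exact two-sided permutation test, adjusted p = 0.0403 over 24 ratio tests, n = 4 against 4). At 48 and 72 h the log2 ratio differed from the control by -0.05 and 0.04, which did not pass (exact permutation test, adjusted p = 0.561 and 0.596). RDX, the gene of radixin and the third ERM member, gave log2 fold changes of 0.15, 0.10 and -0.14 at 12, 24 and 48 h that did not pass the test, and was lower at 72 h (-0.20, edgeR adjusted p = 0.022).

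**Figure D2:**
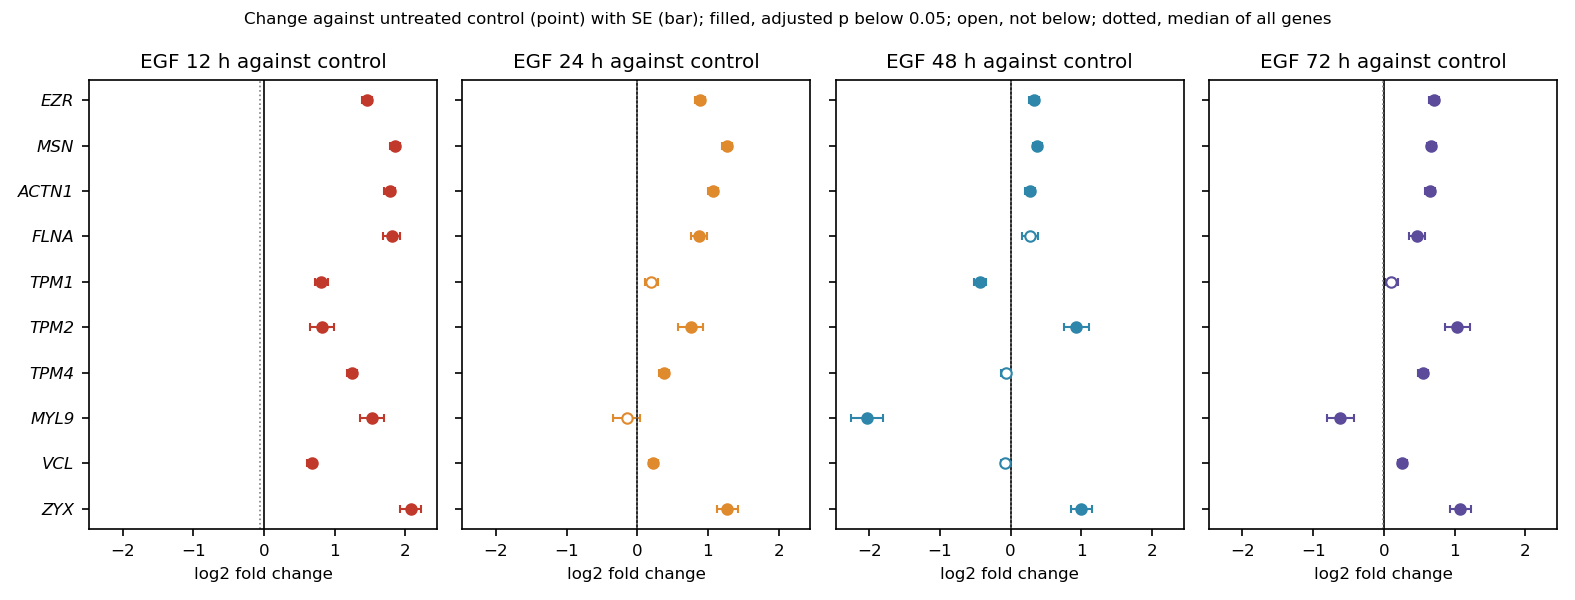
Log2 fold change of each gene against the untreated control at each EGF time (point) with its SE (bar), from edgeR over 20 libraries. Filled points have an adjusted p below 0.05, open points do not, and the dotted line is the median of all genes tested. All 10 points are filled and right of 0 at 12 h, whereas at 48 h MYL9 stands at -2.03 and TPM1 at -0.43.

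Alpha-actinin and filamin cross-link filaments, the first into bundles and the second into networks that also bind integrins. ACTN1 (chromosome 14, 68874143 to 68979440, minus strand, 28 merged exons) was at 184, 218, 168 and 192 CPM in the control and at 667, 644, 639 and 662 CPM at 12 h. The rise was 3.43-fold (log2 fold change 1.78 ± 0.08, SE, edgeR adjusted p = 1.02e-15). ACTN1 then fell to 352, 402, 440.1 and 407 CPM at 24 h and to 246, 240.2, 216 and 219.7 CPM at 48 h, and stood at 311, 286, 307 and 290.5 CPM at 72 h. Only at 48 h did the groups touch, the lowest EGF library being under the highest control, replicate 2. The log2 fold changes at 24, 48 and 72 h were 1.07 ± 0.07, 0.28 ± 0.07 and 0.65 ± 0.07 (SE, edgeR adjusted p = 1.17e-11, 0.00371 and 5.74e-08). The other non-muscle alpha-actinin, ACTN4, rose by a log2 fold change of 1.01 at 12 h and did not pass the test at 24, 48 or 72 h (0.18, 0.01 and 0.11).

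The balance of the pair moved from ACTN4 towards ACTN1. In the control the ratio of ACTN1 to ACTN4 counts was 0.760, 0.733, 0.825 and 0.770, and with EGF it was 1.30, 1.27, 1.34 and 1.32 at 12 h and 1.39, 1.39, 1.51 and 1.43 at 24 h. It stayed above the control in all 16 EGF libraries. The log2 differences were 0.76, 0.89, 0.26 and 0.54 at 12, 24, 48 and 72 h (exact permutation test, adjusted p = 0.0403 each, n = 4 against 4, where the smallest possible unadjusted p is 0.0286).

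FLNA (chromosome X, 154348524 to 154374638, minus strand, 41 merged exons) was at 275, 375, 222 and 298 CPM in the control, a wide spread set by replicate 2, and at 1076, 1018, 982 and 1018 CPM at 12 h. The 12 h libraries were all above the highest control, and the log2 fold change was 1.81 ± 0.12 (SE, 3.50-fold, edgeR adjusted p = 3.13e-12). At 24 h FLNA was at 527, 574, 518 and 532 CPM, at 48 h at 386, 402, 321 and 303 CPM and at 72 h at 456, 356, 399 and 411 CPM. It was higher than in the control at 24 h (0.88 ± 0.11, SE) and, with 1 library inside the control range, at 72 h (0.47 ± 0.11, SE, edgeR adjusted p = 6.04e-07 and 0.000973). At 48 h 2 of the 4 libraries lay inside the control range and the log2 fold change of 0.27 ± 0.11 missed the threshold (edgeR adjusted p = 0.0542). Without control replicate 2 it was 0.41 and passed (edgeR adjusted p = 0.00137).

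Tropomyosins are rod-like dimers that run along the filament, and cells choose among 4 genes, TPM1 to TPM4, each with several isoforms that a count per gene does not separate. TPM4 (chromosome 19, 16067021 to 16103005, plus strand, 19 merged exons) was at 572, 446, 485 and 477 CPM in the control and at 1174, 1143, 1212 and 1176 CPM at 12 h. The log2 fold change was 1.25 ± 0.07 (SE, 2.38-fold, edgeR adjusted p = 2.28e-13). The 24 h libraries gave 581, 627, 667 and 689 CPM, those of 48 h 467, 434, 502 and 487 CPM and those of 72 h 759.9, 761, 713 and 687 CPM. TPM4 was thus still higher at 24 h (0.37 ± 0.07, SE, edgeR adjusted p = 8.4e-05). At 48 h it did not pass (-0.07 ± 0.07, SE, edgeR adjusted p = 0.456), its libraries lying among the controls apart from replicate 2, just below them. TPM4 was higher again at 72 h (0.56 ± 0.07, SE, edgeR adjusted p = 2.84e-07). The 72 h level passed the 24 h level by a log2 fold change of 0.19 ± 0.07 (SE, edgeR adjusted p = 0.0359), a call lost in 5 of the 8 fits with 1 of these libraries left out. Of the exon bases of TPM4, 9.60% lie opposite exons of AC008894.3.

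TPM1 (chromosome 15, 63042632 to 63071915, plus strand, 12 merged exons) was at 293, 209, 253 and 223 CPM in the control, at 421, 401, 463 and 432 CPM at 12 h and at 178, 161, 205 and 180.0 CPM at 48 h. It stood above all controls at 12 h and below all controls at 48 h. The log2 fold change was 0.81 ± 0.09 at 12 h and -0.43 ± 0.09 at 48 h (SE, edgeR adjusted p = 2.9e-08 and 0.000425). At 24 h TPM1 was at 244, 286, 295 and 299.5 CPM and at 72 h at 265, 277, 248 and 261 CPM, with log2 fold changes of 0.20 ± 0.09 and 0.10 ± 0.09 that did not pass (SE, edgeR adjusted p = 0.061 and 0.328). Without control replicate 1, the highest control, both passed (0.30 and 0.20, edgeR adjusted p = 0.00526 and 0.0484). Of the exon bases of TPM1, 21.4% lie opposite exons of TPM1-AS and AC079328.2, and whether strand was used in counting is not given in the sources used here.

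TPM2 (chromosome 9, 35681992 to 35690121, minus strand, 8 merged exons) was the least abundant per exon length of these 3 tropomyosins. It was at 11.3, 15.0, 12.0 and 12.4 CPM in the control and at 23.2, 24.7, 21.0 and 20.8 CPM at 12 h. At 24 h it was at 20.9, 22.9, 20.3 and 21.6 CPM, at 48 h at 22.8, 36.2, 18.7 and 19.4 CPM and at 72 h at 26.4, 28.0, 18.4 and 31.8 CPM. All 16 EGF libraries were above the highest control, and the 48 and 72 h groups spread more widely than the others. Against the control the log2 fold changes were 0.82 ± 0.18, 0.76 ± 0.18, 0.93 ± 0.17 and 1.04 ± 0.17 (SE, edgeR adjusted p = 0.000277, 0.000865, 0.000157 and 2.4e-05). Leaving out 48 h replicate 2, at 36.2 CPM, gave 0.67 at 48 h (edgeR adjusted p = 0.000246) and let the step from 48 to 72 h pass (0.37, edgeR adjusted p = 0.033). Between EGF times the log2 changes from 12 to 24, 24 to 48 and 48 to 72 h were -0.06 ± 0.17, 0.18 ± 0.17 and 0.11 ± 0.17 (SE), and did not pass (edgeR adjusted p = 0.771, 0.414 and 0.653). Without 72 h replicate 3, the lowest of its group, the difference of 72 from 24 h passed (0.42, edgeR adjusted p = 0.0473).

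Set against each other within a library, the tropomyosins shifted in composition. The ratio of TPM1 to TPM4 counts was 0.511, 0.468, 0.522 and 0.467 in the control and 0.349, 0.364, 0.348 and 0.379 at 72 h, and it was lower at 12, 24, 48 and 72 h, with log2 differences of -0.43, -0.17, -0.36 and -0.45 (exact permutation test, adjusted p = 0.0403 each, n = 4 against 4). The ratio of TPM1 to TPM2 counts was 25.9, 13.9, 21.0 and 18.0 in the control and 7.81, 4.45, 11.0 and 9.28 at 48 h. This log2 ratio was lower at 48 and 72 h (-1.32 and -0.91, exact permutation test, adjusted p = 0.0403 each), and its differences of -0.0043 at 12 h and -0.56 at 24 h did not pass (adjusted p = 0.943 and 0.0762, exact permutation test). With the deposited normalised values TPM1:TPM4 differed by -0.27 at 24 h and -0.54 at 48 h and no longer passed (exact permutation test, adjusted p = 0.229 and 0.0762). TPM2 gained on TPM4 at 48 h by 0.95 (exact permutation test, adjusted p = 0.0403). The log2 differences of that ratio at 12, 24 and 72 h were -0.43, 0.39 and 0.46 and did not pass (exact permutation test, adjusted p = 0.098 each), though with the deposited normalised values the 12 h difference passed (-0.67, exact permutation test, adjusted p = 0.0429). TPM3, the fourth tropomyosin, rose at 12 and 24 h (0.83 and 0.48), was lower at 48 h (-0.25) and gave 0.04 at 72 h (log2, edgeR adjusted p = 1.3e-11, 2.2e-07, 0.001 and 0.62).

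**Figure D3:**
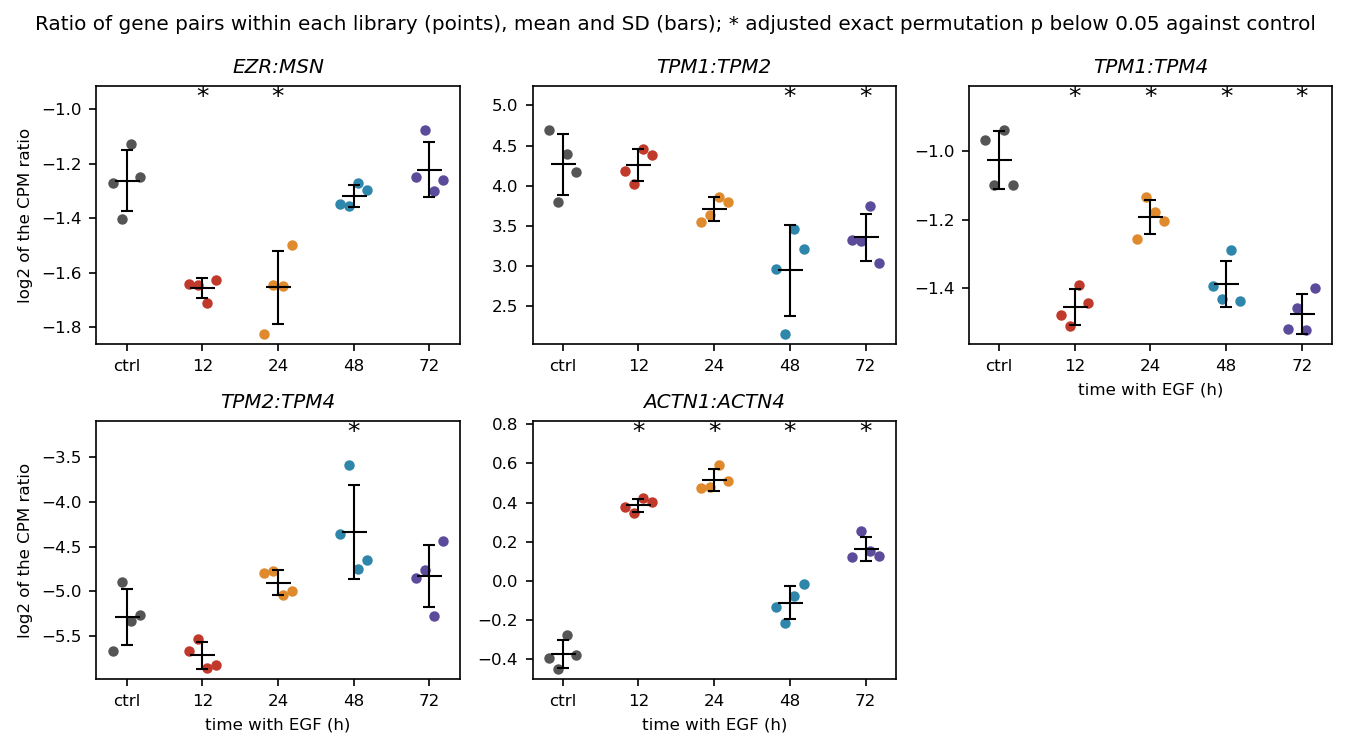
Log2 ratio of the counts of 2 genes in the same library, by group, with points for libraries and bars for the mean and SD of 4, on axes that do not start at 0. An asterisk marks an adjusted exact permutation p below 0.05 against the control. ACTN1:ACTN4 lies above and TPM1:TPM4 lies below the control at every EGF time, and EZR:MSN is below it at 12 and 24 h.

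MYL9 encodes a regulatory light chain of myosin II best known from smooth muscle and myofibroblasts, whose phosphorylation starts contraction. It was the scarcest of the 10 genes, with 25 to 45 counts a library in the control and 6 to 10 at 48 h, so counting error is a larger part of its spread. MYL9 (chromosome 20, 36541484 to 36551447, plus strand, 4 merged exons) was at 1.46, 1.89, 1.54 and 1.20 CPM in the control, at 4.65, 4.69, 4.09 and 4.21 CPM at 12 h and at 1.33, 1.75, 1.15 and 1.27 CPM at 24 h. The 12 h libraries stood clear of the others. The 24 h libraries lay among the controls, apart from replicate 3, which was just below the lowest control. At 48 h it was at 0.332, 0.440, 0.266 and 0.453 CPM and at 72 h at 1.08, 0.853, 0.949 and 1.09 CPM, both groups entirely below the control. In order of time its log2 fold changes were 1.53 ± 0.17, -0.15 ± 0.19, -2.03 ± 0.22 and -0.61 ± 0.20 (SE, edgeR adjusted p = 3.42e-08, 0.52, 7.72e-08 and 0.0089). From 48 to 72 h it rose 2.66-fold (edgeR adjusted p = 5.61e-05). TPM1 and MYL9 were the 2 genes that passed above the control at one EGF time and below it at another, as did 13.0% of all genes tested.

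MYL12A and MYL12B encode the regulatory light chains of non-muscle myosin II. MYL12A was at 1024 ± 144 CPM and MYL12B at 1954 ± 35.7 CPM in the control (SD, n = 4 each), a pair so alike in sequence that the division of reads between them is uncertain. They rose by log2 fold changes of 1.04 and 0.68 at 12 h and gave -0.07 and -0.10 at 48 h, which did not pass (edgeR adjusted p = 0.57 and 0.075). MYL6, the essential light chain, was higher at 12 h (0.48) and lower at 48 and 72 h (-0.58 and -0.33, log2, edgeR adjusted p = 1.1e-06, 2.4e-07 and 0.00018). MYH9, the heavy chain of non-muscle myosin IIA, rose by 1.44 at 12 h and by 0.23 at 24 h and gave -0.08 and 0.02 at 48 and 72 h (log2, edgeR adjusted p = 4.1e-14, 0.011, 0.41 and 0.85).

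Vinculin strengthens the link from talin to actin when an adhesion is under force, and zyxin joins adhesions and stress fibres that are stretched. VCL (chromosome 10, 73995193 to 74121363, plus strand, 26 merged exons) was at 195, 168, 165 and 162 CPM in the control, with replicate 1 apart, and at 265, 280.0, 274 and 284 CPM at 12 h. Its rise, 0.68 ± 0.07 (log2, SE, 1.60-fold, edgeR adjusted p = 2.26e-09), was the smallest of the 10 at that time. VCL was at 182, 195, 221 and 210.4 CPM at 24 h, at 160.4, 162, 169 and 164 CPM at 48 h and at 212, 208, 202 and 203 CPM at 72 h. The log2 fold changes of 0.23 at 24 h and 0.26 at 72 h passed and -0.07 at 48 h did not (SE 0.07 each, edgeR adjusted p = 0.00419, 0.00143 and 0.384). With library totals as the only scaling its fall from 24 to 48 h did not pass (-0.15, edgeR adjusted p = 0.0805). Of the exon bases of VCL, 11.1% lie opposite exons of AP3M1.

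ZYX (chromosome 7, 143381080 to 143391111, plus strand, 11 merged exons) was at 31.7, 50.1, 27.6 and 33.2 CPM in the control and at 166, 158, 136 and 141 CPM at 12 h. This was the largest log2 fold change of the 10 genes, 2.08 ± 0.15 (SE, 4.21-fold, edgeR adjusted p = 8.06e-11), and 2.29 without control replicate 2, the highest control. ZYX was at 78.0, 91.5, 96.9 and 78.6 CPM at 24 h, at 80.0, 82.8, 59.1 and 63.7 CPM at 48 h and at 86.9, 66.0, 76.5 and 72.3 CPM at 72 h, always above the highest control. The log2 fold changes were 1.27 ± 0.15, 1.00 ± 0.15 and 1.08 ± 0.15 (SE, edgeR adjusted p = 2.47e-07, 1.16e-05 and 2.06e-06). The steps from 24 to 48 h and from 48 to 72 h, -0.27 ± 0.15 and 0.08 ± 0.15 (log2, SE), did not pass (edgeR adjusted p = 0.1252 and 0.703).

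PXN and TLN1 were followed as partners of VCL and ZYX in the plaque. PXN, the gene of paxillin, an adaptor of adhesions, was higher at 12, 24, 48 and 72 h by 1.58, 0.91, 0.62 and 0.82 (log2), and TLN1, the gene of talin that binds integrin and vinculin, by 0.83, 0.53, 0.15 and 0.30, of which the 48 h value did not pass (edgeR adjusted p = 0.23). The actins themselves, ACTB and ACTG1, rose by 1.74 and 1.73 at 12 h and were lower at 48 h (-0.28 and -0.45, log2, edgeR adjusted p = 0.00083 and 0.00017 at 48 h). Their counts can include reads from processed pseudogenes, and how such reads were divided is not given in the sources used here. SRF itself rose by 0.90 at 12 h and gave -0.06, -0.05 and -0.12 at 24, 48 and 72 h (log2, edgeR adjusted p = 1.2e-08, 0.63, 0.7 and 0.28).

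Levels were compared between genes only after division by exon length (CPM per kb of merged annotated exon). Merged exons take in every annotated transcript, 6 over 5971 bp for MSN, 24 over 8632 bp for TPM4 and 34 over 12876 bp for TPM1. The length of the transcripts in use was not measured, so the order below holds for merged exon length only. In the control TPM4 (57.4 ± 6.26) stood first and MSN (40.0 ± 3.23) second, followed by EZR (29.7 ± 0.92) and FLNA (27.7 ± 5.99), whose libraries overlapped (SD, n = 4 each). TPM1, ACTN1 and VCL came next at 19.0, 17.9 and 17.2 with overlapping libraries, and ZYX, TPM2 and MYL9 followed at 10.2, 3.90 and 0.54 without overlap. At 12 h MSN (144 ± 0.94) was first and TPM4 (136 ± 3.31) second, with no library in common, and the order went on with FLNA, EZR, ACTN1, ZYX, TPM1, VCL, TPM2 and MYL9 at 96.7, 81.9, 61.4, 43.2, 33.3, 27.6, 6.91 and 1.56, each clear of its neighbour. MSN was still first at 24 h, overlapped TPM4 at 48 h (52.1 ± 3.60 and 54.7 ± 3.39) and was second to it at 72 h (63.7 ± 3.94 and 84.6 ± 4.23). ZYX moved from below VCL in the control to above it at 12 h. TPM2 and MYL9 were last at every time.

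**Figure D4:**
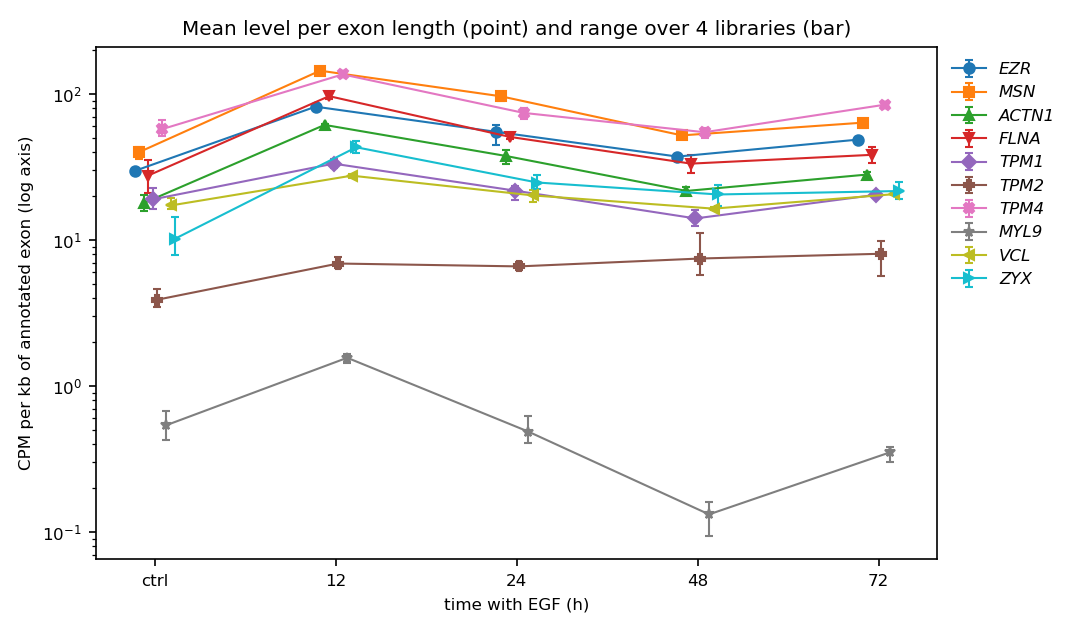
Mean CPM per kb of merged annotated exon for each gene by group (log axis, time points evenly spaced), with bars from the lowest to the highest of 4 libraries. MSN lies above TPM4 at 12 and 24 h and below it in the control and at 72 h, and MYL9 lies lowest throughout.

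Across the 20 libraries the log2 levels of MSN and ACTN1 were the most alike of any pair among the 10 genes (Pearson r = 0.993, n = 20), and TPM4 with VCL (r = 0.982) and EZR with ACTN1 (r = 0.979) came close. TPM2 had its lowest r with MYL9 (-0.08) and TPM1 (0.02) and its highest with ZYX (0.67). These are descriptions over libraries that share 5 group means, and no p is attached. Among the genes averaging at least 10 CPM, the closest to each member were AMOTL1 and EFNB2 to EZR (r = 0.989 and 0.988), KIAA1549L and RPS6KA1 to MSN (0.994 and 0.993), DIAPH1 and MSN to ACTN1 (0.995 and 0.993), and MAPKAPK3 and GIPC1 to FLNA (0.991 and 0.988). HSP90B1 and KRT23 were closest to TPM1 (0.977 and 0.970), CCNL2 and WASH5P to TPM2 (0.898 and 0.891), SAP30BP and VCL to TPM4 (0.990 and 0.982), PCBP1 and DDX27 to MYL9 (0.971 and 0.959), TPM4 and LRRC59 to VCL (0.982 and 0.972), and SHB and FTSJ1 to ZYX (0.989 and 0.986). The weakest best match was that of TPM2.

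The wider machinery was examined in 6 lists of genes that do not contain the 10. The counts below stand beside 32.9%, 29.2%, 24.0% and 30.6% of all genes called higher at 12, 24, 48 and 72 h. Called lower were 36.5%, 29.6%, 21.8% and 31.0% of all genes. Among 12 tested actin isoforms and paralogs 10 were higher and 0 lower at 12 h, and at 48 h 3 were higher and 5 lower. The medians at these times were 1.03 and -0.12. ACTB and ACTG1 are given above.

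Of 21 tested genes of actomyosin contraction, 14 were higher and 1 lower at 12 h, while at 48 h 4 were higher and 9 lower, and the median went from 0.41 to -0.08. TAGLN, the gene of transgelin, an actin-binding protein of contractile cells, averaged 1.43 ± 0.231 CPM without EGF and 18.5 ± 1.75 CPM after 12 h (SD, n = 4 each). Like MYL9 it rose at 12 h (log2 fold change 3.69) and was lower than the control at 48 and 72 h (-1.03 and -1.005, edgeR adjusted p = 0.0007 and 0.00068). Unlike MYL9 it was still higher at 24 h (1.65, edgeR adjusted p = 3.7e-08). Its step from 48 to 72 h did not pass (0.03, edgeR adjusted p = 0.96), at means of only 0.704 and 0.727 CPM. MYLK, the kinase that phosphorylates myosin light chains, took another course, with log2 fold changes of 0.83, 1.83, 2.17 and 2.93 at 12, 24, 48 and 72 h. PDLIM7, a PDZ and LIM domain protein found on actin filaments, was higher by 1.88, 0.87, 0.43 and 0.68.

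The focal adhesion plaque list held genes that moved either way. Of its 36 genes 25 were higher and 8 lower at 12 h, 21 and 9 at 24 h, 7 and 8 at 48 h and 17 and 12 at 72 h, with medians of 0.52, 0.34, 0.12 and 0.16. Without control replicate 2 the counts at 48 h were 15 higher and 9 lower. TNS4 and TNS1 are tensins, a family that links adhesions to actin. TNS4, the short form without the actin-binding part, had a control mean of 14.1 ± 2.69 CPM and a 12 h mean of 298 ± 8.67 CPM (SD, n = 4 each). It rose by 4.41 on the log2 scale at 12 h and gave 0.11 at 48 h (edgeR adjusted p = 0.78). TNS1 was lower at all 4 times (log2 fold changes -2.49, -2.38, -1.06 and -2.04), as was SORBS2, a vinculin-binding adaptor (-2.91, -1.19, -0.38 and -0.82).

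Of 50 genes of actin filament turnover 32 were higher and 7 lower at 12 h, 28 and 10 at 24 h, 12 and 14 at 48 h and 26 and 11 at 72 h, with medians of 0.58, 0.30, 0.04 and 0.24. FSCN1, the bundling protein of filopodia, was at 0.592 ± 0.135 CPM in the control (SD, n = 4) and was higher by 4.23, 4.17, 2.48 and 3.94 (log2). TMSB4X, the monomer-binding thymosin, was higher by 0.74, 1.31, 1.17 and 1.65, and PFN2, a profilin, was lower at 12, 24 and 72 h (-1.58, -1.11 and -0.39). Of 12 tested partners of the ERM proteins 9 were higher and 2 lower at 12 h and 7 and 3 at 72 h. S100P, which binds ezrin in a calcium-dependent way, averaged 28.0 ± 4.72 CPM without EGF and 1131 ± 70.1 CPM after 72 h (SD, n = 4 each), a log2 fold change of 5.34. ICAM1, a membrane protein that ezrin and moesin hold, was higher by 2.29, 0.56, 1.33 and 1.75, and STK10, a kinase of ERM proteins, by 1.72, 1.29, 0.71 and 0.97.

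Of 17 tested SRF and YAP regulators and target genes 12 were higher and 3 lower at 12 h, and 2 were higher and 4 lower at 48 h, with medians of 0.73 and -0.05. CCN2 and AMOTL2 rose by 2.36 and 1.66 at 12 h, and ANKRD1 by 2.12 at 72 h (log2). For every list the share called higher at 12 h was above the 32.9% of all genes. At 48 h 24.0% of all genes were called higher and 21.8% lower. Beside this, 6 of 12 ERM partners were higher and 3 lower. Of the 12 isoforms and paralogs 3 were higher, about the share of all genes, and 5 lower. Of 36 focal adhesion genes 7 were higher, below that share. Without control replicate 2 it was 15, in a fit whose share over all genes is not given here. These lists were chosen with results of the same data known.

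**Figure D5:**
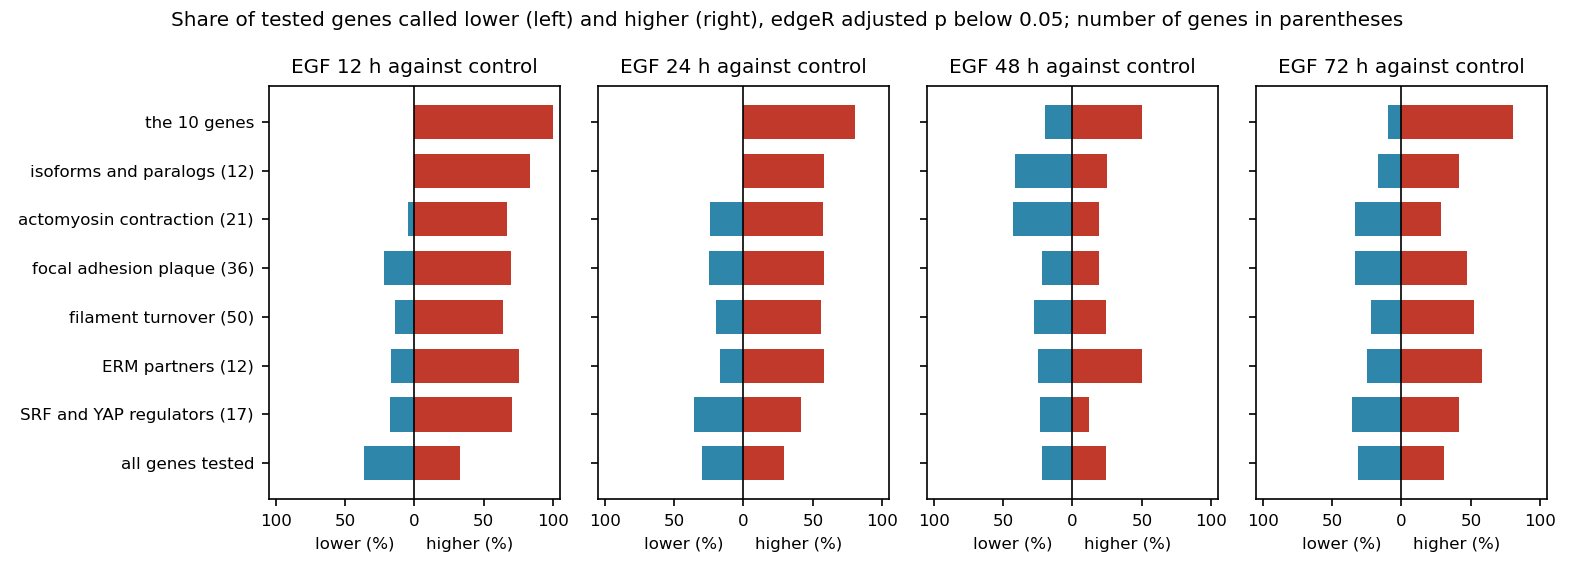
Share of tested genes called higher (right) or lower (left) than the control at each EGF time (edgeR adjusted p below 0.05) for the 10 genes, 6 related lists with the number tested in parentheses, and all genes tested. Bars reach further right than those of all genes in every list at 12 h, and at 48 h the longest bars to the right are those of the 10 genes and of the ERM partners.

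The size of these changes depends on how libraries are put on one scale. With library totals alone in place of the trimmed mean of M values, the median of all genes tested at 12 h moved to -0.34, and the share of called genes that were higher moved from 47.4% to 30.2% at 12 h and from 49.6% to 36.3% at 24 h. All 10 genes stayed higher at 12 h with library totals, upper quartiles and DESeq2 size factors, as did the 9 that could be fitted with factors per gene taken from the deposited normalised values, MYL9 having too few counts for these. With library totals VCL lost its 24 h call (0.08, edgeR adjusted p = 0.297) and FLNA at 48 h gained one (0.28, edgeR adjusted p = 0.0469).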

How the data were processed

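Poly(A) RNA of 20 MDA-MB-468 cultures was sequenced (Lexogen Corall mRNA, 75 bp single-end reads). The authors deposited estimated counts per gene, rounded to whole numbers, in which 0 rows named no gene, and normalised values, a score the authors made with DESeq2 under SARTools, scaled by factors that differ between genes and whose origin is not given in the sources used here. The submitters' processing notes name hg38 and DESeq2, and aligner, quantifier and strand setting are not given in the sources used here. The 10 deposited tables held identical counts, and columns with the authors' own comparisons were not used.

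The estimated counts were tested here with edgeR 4.0.16 (R 4.3.3): genes passing filterByExpr (16522), TMM scaling, a robust quasi-likelihood fit with 1 mean per group over all 20 libraries, and Benjamini-Hochberg adjustment (threshold 0.05). CPM are counts per 1000000 of TMM-scaled library size, except for markers. A call means adjusted p below 0.05. Ratios of 2 genes used counts of the same library and an exact two-sided permutation test, adjusted over 24 tests, of which 4 are not reported here. Merged exons come from GENCODE 29. The fit was tested on simulated counts. The members and lists were chosen with earlier results of these data known. Genes named beyond the 10 were a fixed set of paralogs and partners, the 3 with the largest called change in each list (at least 5 CPM, EGF libraries all on one side of the control) and the 2 most alike to each member.

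Replicate pairs differed by chi-squares of 3.54 to 58.1 per gene, more than sampling noise. The highest were 58.1 for 48 h replicates 2 and 3, 51.3 for control replicates 2 and 3 and 38.6 for 48 h replicates 2 and 4. Replicates 3 and 4 of 48 h gave 4.52. Replicate 2 of 48 h also had a mitochondrial share of 16.9%, beside 12.1%, 9.83% and 11.3% in replicates 1, 3 and 4, and its part in the results was not tested. Replicate numbers are shared between groups, but no source ties them to a day or batch. Every pair of same-numbered samples correlated above 0.1 in their deviations for 48 h against 12 h (0.24 to 0.48), where the replicate block gave the same 9 members, and in no other comparison (48 h against 24 h gave 0.012 to 0.317). No batch is named in the labels. Alternatives were other scalings, DESeq2 1.42.0, other filters, the 8 libraries compared alone, a replicate block, another prior count and each library left out.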

Additional observations from a re-analysis of the deposited data

Results flagged for a closer look

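EZR in control replicate 1 (103.9 CPM) stood apart from the other 3 controls (97.3 to 98.1 CPM) by more than Dixon's limit for 4 samples. It was the only one of 50 groups of 4 so found, and chance alone gives about 1 in 20. Without it the log2 fold change of EZR at 12 h was 1.49 in place of 1.46.

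TPM1 was called higher than the control at 12 h and lower at 48 h, and the difference between both effects, the change from 12 to 48 h, was -1.25 on the log2 scale (edgeR adjusted p = 2.84e-11). MYL9 was called higher at 12 h and lower at 48 and 72 h, and its changes from 12 h were -3.55 and -2.14 (edgeR adjusted p = 5.68e-13 and 5.73e-10). All 4 libraries of the later time lay below all 4 of 12 h for both genes. The same 4 control libraries enter both effects, which the direct comparison of EGF times does not use.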

How the results depend on the processing

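The number of members called changed by at most 1 in each of the 10 comparisons under every alternative, from 9 to 10 at 12 h, 7 to 9 at 24 h, 6 to 8 at 48 h and 8 to 10 at 72 h against the control. With at least 10 counts in every library or with factors per gene, MYL9 was not tested. Factors per gene from the deposited normalised values lowered the count of all genes called to 6336 at 24 h, 4334 at 48 h and 6559 at 72 h against the control, to 5835 for 24 against 12 h, 4993 for 48 against 24 h, 3209 for 72 against 48 h, 7627 for 48 against 12 h, 7268 for 72 against 12 h and 3612 for 72 against 24 h, over the 11956 genes that had factors. They gave 9 actomyosin genes called at 24 h and 4 isoforms and paralogs at 72 h. With library totals 10 actomyosin genes were called at 24 h, 5 of them higher, beside 3666 of all genes higher and 6421 lower in that fit. With only the 8 libraries compared, 8 actomyosin and 16 filament turnover genes were called at 48 h. Over all genes that fit called 2975 higher and 2613 lower, where the fit of all 20 libraries called 3966 and 3596. With 1 library left out, 8 to 12 actomyosin genes and 13 to 24 focal adhesion genes were called at 48 h, the last without control replicate 2. All genes called at 48 h ran from 6894 to 8088 in those fits. The cause was not tested.

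The share of higher among called genes moved by over 10 points with library totals from 51.9% to 68.6% (24 against 12 h), 51.5% to 71.8% (48 against 24 h), 50.0% to 33.8% (72 against 48 h), 53.7% to 73.0% (48 against 12 h), 52.6% to 68.1% (72 against 12 h) and 51.2% to 62.6% (72 against 24 h), with upper quartiles to 37.2% at 12 h against the control, 66.1% for 24 against 12 h, 65.5% for 48 against 12 h and 63.0% for 72 against 12 h, and with factors per gene to 39.2%, 39.9% and 39.4% for 24, 48 and 72 h against 12 h.

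Values that did not pass changed sign as follows. TPM2 from 12 to 24 h was 0.076 with library totals and 0.051 with upper quartiles, and from 12 to 48 h -0.0094 with factors per gene. ZYX from 48 to 72 h was -0.0046 with library totals. With library totals TPM2 was called higher at 48 and 72 h than at 12 h (0.40 and 0.43). With a library left out, TPM4 at 48 h against the control ran from -0.12 to 0.0081, VCL from 24 to 72 h from -0.021 to 0.072, TPM2 from 24 to 48 h from -0.086 to 0.28, from 12 to 48 h from -0.15 to 0.22 and from 48 to 72 h from -0.00078 to 0.37, and ZYX from 48 to 72 h from -4.9e-06 to 0.16. The cause was not tested.

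FLNA at 48 h against the control, just over the threshold, passed with library totals, DESeq2 size factors, at least 10 counts in every library and a replicate block (0.28, edgeR adjusted p = 0.0327). Same-numbered samples correlated from -0.61 to 0.80 over the other comparisons, and the block changed no other call of a member against the control. For ratios a block leaves too few sign flips for any p to pass (exact sign-flip permutation test). With the deposited normalised values TPM1:TPM4 differed by -0.27 at 24 h and -0.54 at 48 h without passing, and TPM2:TPM4 by -0.67 at 12 h, which passed. Of the members MYL9, at 6 to 10 counts a library at 48 h, is the one whose values depth limits most.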
